A study of Mus musculus with 12 samples.

Results

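The genes described here are 7 predicted, multi-copy mouse genes of proximal chromosome 14, *Gm2974*, *Gm3194*, *Gm3373*, *Gm3383*, *Gm3558*, *Gm3636* and *Gm6356*, out of 36047 genes in the deposited tables. They were selected on their difference between WT and *Gde2*KO cortices at 4 months, so everything given for them at 4 months, limma calls included, only describes that choice, and the 19-month libraries alone serve as a test of the 7. RNAseq was performed on polyA RNA from mouse cortex, with 1 library per animal. The 4 groups were WT and *Gde2*KO mice at 4 months and WT and *Gde2*KO mice at 19 months, with 3 libraries each. *Gde2*KO mice carry a constitutive knockout of *Gdpd5* (the gene for GDE2, a surface enzyme that cleaves GPI anchors), animals of both sexes were used, and the ages were sequenced to different depths, so that age and batch cannot be told apart. The expression values are estimated counts divided by a size factor for each library, called normalized counts here. Values of a gene are sums over its transcripts.

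These genes belong to a duplicated mouse family that includes α-takusan and is thought to derive from part of *Dlg5*, a scaffold gene of the membrane-associated guanylate kinase class. A family member is best known for its effect on clustering of the scaffold PSD-95 and on AMPA-type glutamate receptors at synapses, and the individual roles of the 7 genes are not established. Because copies differ at few bases, a short sequencing read can match many of them, and the quantifier divides such reads between transcripts by likelihood.

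All 7 genes are annotated as protein coding on GRCm38. *Gm2974* lies at chr14:4182576-4204895 on the plus strand. The other 6 are on the minus strand, *Gm3194* at chr14:5438065-5455467, *Gm3373* at chr14:5718336-5741577, *Gm3383* at chr14:5607620-5807982, *Gm3636* at chr14:6735685-6742332, *Gm6356* at chr14:6965449-6973818 and *Gm3558* at chr14:7545151-7568566. The interval of *Gm3383* encloses that of *Gm3373* on the same strand. Between 2 and 9 Mb of the chromosome, 201 genes start in the GENCODE annotation, and 186 of them are in the deposited table.

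Each of the 7 genes has a coding exon of 163 bases, which is shown to make visible how little separates most of the copies in this exon. Of the annotated copies, *Gm2974* (chr14:4198150-4198312, exon 4), *Gm3194* (chr14:5444645-5444807, exon 3) and *Gm3383* (chr14:5797136-5797298, exon 3) are identical in it, and *Gm3373* (chr14:5724919-5725081, exon 4) and *Gm3558* (chr14:7551732-7551894, exon 4) are identical to each other. The exon is printed 5′ to 3′ on the strand of the gene from GENCODE transcripts of GRCm38, with capitals at bases that differ from *Gm3194*, for 1 gene of each distinct sequence. *Gm3636* (chr14:6741303-6741465) and *Gm6356* (chr14:6972788-6972950) carry it as exon 2.
Gm3194: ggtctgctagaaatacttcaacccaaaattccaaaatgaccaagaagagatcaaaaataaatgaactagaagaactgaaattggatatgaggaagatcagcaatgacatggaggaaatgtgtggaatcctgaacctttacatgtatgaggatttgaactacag
Gm3373: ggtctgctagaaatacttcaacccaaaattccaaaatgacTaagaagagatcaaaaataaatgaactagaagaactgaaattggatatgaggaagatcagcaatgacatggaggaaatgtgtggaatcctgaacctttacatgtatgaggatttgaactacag
Gm3636: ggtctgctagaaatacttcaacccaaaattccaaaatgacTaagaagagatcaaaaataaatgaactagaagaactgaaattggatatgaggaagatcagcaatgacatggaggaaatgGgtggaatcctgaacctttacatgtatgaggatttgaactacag
Gm6356: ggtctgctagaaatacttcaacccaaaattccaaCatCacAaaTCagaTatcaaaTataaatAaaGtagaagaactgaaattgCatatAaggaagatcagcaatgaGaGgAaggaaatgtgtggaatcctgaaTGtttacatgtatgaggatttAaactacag
Counted from 1 at the 5′ end of the exon, *Gm3373* and *Gm3558* carry C41T, and *Gm3636* carries C41T and T120G. *Gm6356* differs from *Gm3194* at 17 of the 163 bases, an identity of 89.6%, and stands apart from the other 6 genes, which share at least 98.8% of the exon.

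Over whole transcripts the sharing was counted with words of 31 bases, the length kallisto uses unless set otherwise. The 7 genes and 131 others share at least 1 such word, and all 138 lie on chromosome 14, 103 of them between 2 and 9 Mb. These 138 genes are called the family here. *2610042L04Rik*, for which RefSeq lists takusan as a synonym, is among them. The share of a gene's words found in no other gene was 32.9% for *Gm6356*, 9.16% for *Gm2974*, 6.81% for *Gm3558*, 6.53% for *Gm3636*, 3.44% for *Gm3383*, 1.54% for *Gm3373* and 0% for *Gm3194*. *Gm6356* is thus the member whose reads can best be assigned, and reads of *Gm3194* cannot be told from those of *Gm3383* at all. Both transcripts of *Gm3194* (ENSMUST00000180867.7 and ENSMUST00000180143.1) are identical in sequence to transcripts of *Gm3383* (ENSMUST00000112758.9 and ENSMUST00000178414.1), and the deposited values of each pair were equal in all 12 libraries. *Gm3194* and *Gm3383* therefore differ only by 1 further transcript of *Gm3383* and are not separate observations.

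**Figure D1:**
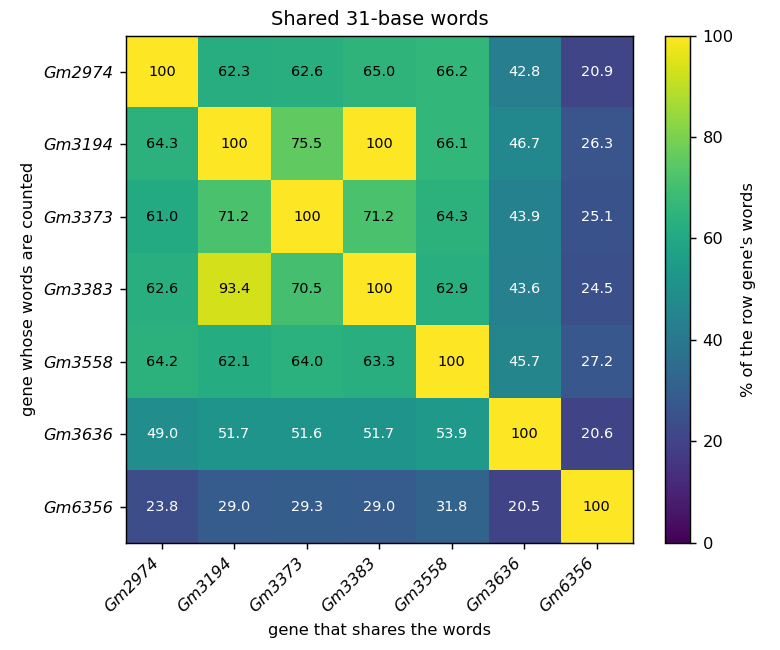
Share of the 31-base words of each gene (row) that also occur in each other gene (column), in percent of the row gene's words. All words of *Gm3194* occur in *Gm3383*, and at most 31.8% of the words of *Gm6356* occur in any of the other 6 genes. Of the words of *Gm3636*, 20.6% occur in *Gm6356*, and 49.0% (*Gm2974*) to 53.9% (*Gm3558*) in each of the others.

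RefSeq gives a promoter window for 6 of the 7 genes, all but *Gm6356*. The 250 bases before the start are printed for the 4 members whose window is over 65% G and C, since these 4 windows share a run of letters. They lie at chr14:4182320-4182569 (*Gm2974*, plus strand), chr14:5460411-5460660 (*Gm3194*, minus strand), chr14:7568567-7568816 (*Gm3558*, minus strand) and chr14:6757058-6757307 (*Gm3636*, minus strand) of GRCm38.p6, and the RefSeq starts of *Gm3194* and *Gm3636* lie upstream of the GENCODE intervals given above. Capitals mark the longest run of letters that all 4 hold, which is 20 bases long.
Gm2974: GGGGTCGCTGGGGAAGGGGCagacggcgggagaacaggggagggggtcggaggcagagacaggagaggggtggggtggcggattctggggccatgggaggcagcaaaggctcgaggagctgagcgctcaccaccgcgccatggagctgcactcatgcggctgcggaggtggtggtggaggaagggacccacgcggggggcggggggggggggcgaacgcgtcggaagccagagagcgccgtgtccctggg
Gm3194: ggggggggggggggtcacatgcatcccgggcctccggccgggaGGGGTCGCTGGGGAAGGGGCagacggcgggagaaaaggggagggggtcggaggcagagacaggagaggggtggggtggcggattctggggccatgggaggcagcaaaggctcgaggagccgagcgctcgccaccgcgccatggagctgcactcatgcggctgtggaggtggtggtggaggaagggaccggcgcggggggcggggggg
Gm3558: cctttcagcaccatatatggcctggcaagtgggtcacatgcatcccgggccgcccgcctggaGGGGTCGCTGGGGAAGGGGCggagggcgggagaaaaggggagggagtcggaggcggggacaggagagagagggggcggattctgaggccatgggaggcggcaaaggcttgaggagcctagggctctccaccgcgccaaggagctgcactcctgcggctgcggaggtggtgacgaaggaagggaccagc
Gm3636: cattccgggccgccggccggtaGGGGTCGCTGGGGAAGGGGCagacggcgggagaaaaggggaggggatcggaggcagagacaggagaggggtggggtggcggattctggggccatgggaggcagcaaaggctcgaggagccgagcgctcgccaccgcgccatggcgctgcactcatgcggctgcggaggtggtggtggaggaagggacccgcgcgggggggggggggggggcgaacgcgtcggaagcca
The GC box GGGCGG, searched on both strands with overlaps counted, occurs at 1 place in the windows of *Gm2974* and *Gm3194* and at 4 in that of *Gm3558*, and is not in that of *Gm3636*. Of all 32851 promoter windows cut to the same 250 bases, 32.7% hold it. The windows of *Gm3373* and *Gm3383* had a G and C content between 35.2% and 60.4% and do not hold the motif. The 4-month ratios of means of *Gde2*KO to WT were 2.63, 7.43 and 4.85 for *Gm2974*, *Gm3194* and *Gm3558*, whose windows hold the motif. They were 15.9, 6.13 and 6.16 for *Gm3636*, *Gm3373* and *Gm3383*. *Gm3194* and *Gm3383* share transcripts and are not separate observations, and a relation of motif and level was not tested.

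Depth bears on genes of such low level. By the value of a single read in each library, the 4-month libraries held 46434270 to 59728494 estimated reads and the 19-month libraries 3707928 to 44604721. WT library A and *Gde2*KO library A of 19 months were shallow, and 1 read equals 4.66 normalized counts in the first and 8.29 in the second, against 0.702 to 0.847 in the other 4. The target itself, *Gdpd5*, had 684 to 1199 normalized counts in WT and 403 to 585 in *Gde2*KO libraries at 4 months, and 952 to 1129 and 441 to 560 at 19 months, with no overlap at either age. Transcript of *Gdpd5* thus remained in the *Gde2*KO libraries, and limma called it at 19 months (log2 difference -1.11, adjusted p = 0.0111) but not at 4 months (-0.85, adjusted p = 0.463). Markers of hippocampus (summed TPM of 6 genes, TPM being a length-corrected level) reached 210 and 176 in WT replicates 1 and 2 of 4 months and 11.04 to 25.9 in the other 10 libraries, and markers of striatum (8 genes) ran from 139 to 253 in those replicates, 1965 in WT replicate 3 and 1097 to 2713 in *Gde2*KO. All cortical neuron markers (7 genes) were above 0 in every library.

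At 4 months, 6 of the 7 genes had higher and *Gm6356* lower values in every *Gde2*KO library than in every WT library. Of all genes tested, 15.4% had no overlap at that age, and the 7 had none because they were selected on this contrast. *Gm3636* had 11.2, 9.96 and 11.6 normalized counts in WT replicates 1, 2 and 3 and 184, 109 and 226 in *Gde2*KO replicates 1, 2 and 3. Its means of 10.9 ± 0.84 and 173 ± 59.3 (SD, n = 3) differ by a factor of 15.9, the largest ratio among the 6. *Gm3194* had 21.4, 30.8 and 27.1 in WT and 204, 148 and 236 in *Gde2*KO, a ratio of means of 7.43. *Gm3383*, which shares most of these reads, had 26.9, 43.3 and 28.7 in WT and 213, 154 and 242 in *Gde2*KO, a ratio of 6.16. The order of the *Gde2*KO replicates was the same in both, as their shared transcripts require.

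*Gm3373* had 30.3, 40.5 and 51.0 normalized counts in WT and 259, 162 and 326 in *Gde2*KO at 4 months, a ratio of means of 6.13. *Gm3558* had 46.4, 49.95 and 56.9 in WT and 273, 151 and 319 in *Gde2*KO, a ratio of 4.85. *Gm2974* had the smallest ratio, 2.63, with 39.6, 33.6 and 57.7 in WT and 123, 88.3 and 133 in *Gde2*KO. In all 6 genes *Gde2*KO replicate 2 was the lowest and replicate 3 the highest of its group, which is also the order of the normalized totals of these libraries (35949224, 31917431 and 41229086 in replicates 1, 2 and 3). As a share of that total, replicate 2 was still the lowest for all 6, but replicate 1 was above replicate 3 for *Gm2974* and *Gm3383*.

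*Gm6356* showed the opposite pattern. It had 149, 96.4 and 152 normalized counts in the WT libraries of 4 months and 1.26, 1.39 and 1.39 in *Gde2*KO, which is about 2 reads in each *Gde2*KO library. Over the 3 libraries of each group, 621 estimated reads in WT stood against 6 in *Gde2*KO, a depth-corrected ratio of 98.8. The ratio only describes the contrast on which the gene was chosen and rests on few *Gde2*KO reads. *Gm6356* was at 0 in all 6 libraries of 19 months, WT included. A count of 0 allows up to 3 reads, which equals 2.11 to 2.54 normalized counts in the 4 deeper libraries of that age, 13.98 in WT library A and 24.9 in *Gde2*KO library A. Expression of *Gm6356* at the level of the 4-month WT animals was thus seen in these 3 libraries and in none of the other 9.

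**Figure D2:**
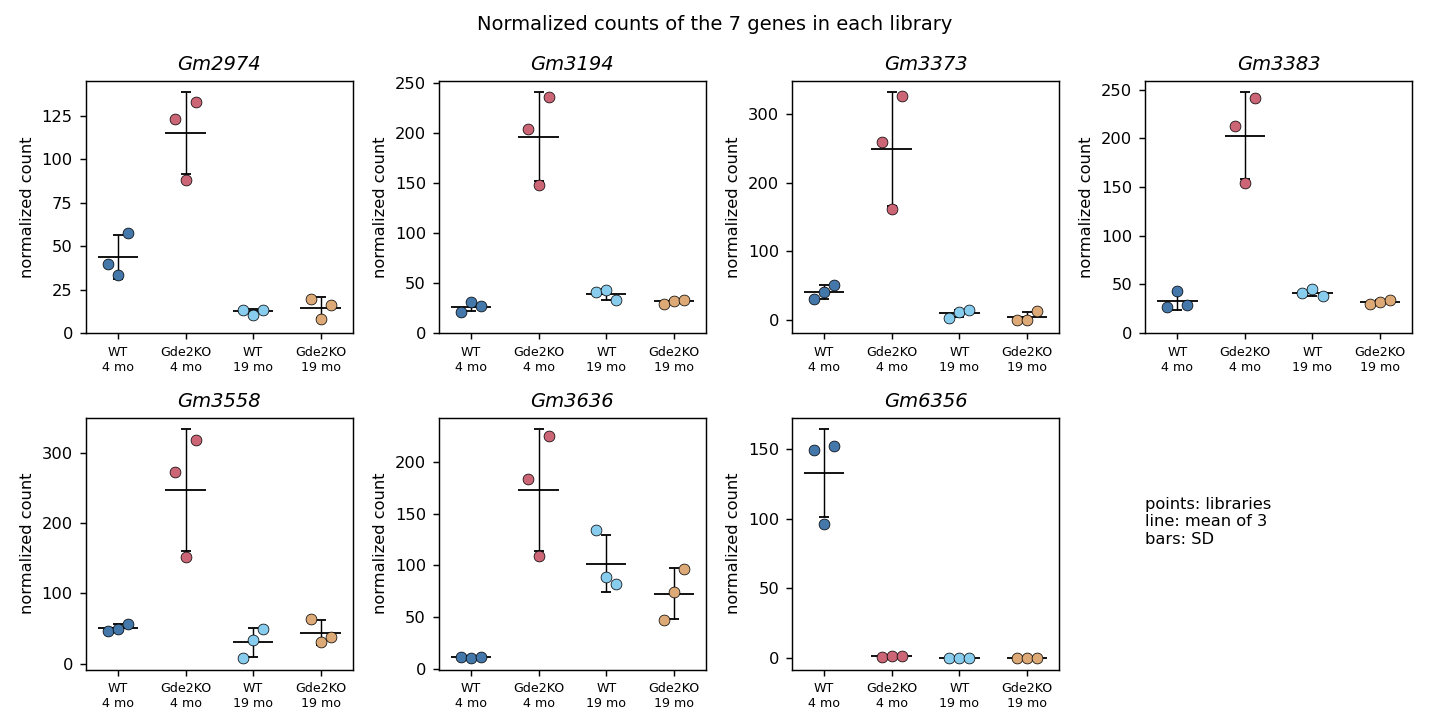
Normalized counts of each gene (vertical axis, a scale of its own in each panel) in the 4 groups; points are libraries, horizontal lines the mean of 3, and bars the SD. The 3 *Gde2*KO libraries of 4 months lie above all others in 6 panels, except that for *Gm3636* the 19-month WT library A (134) exceeds *Gde2*KO replicate 2 (109), and in the panel of *Gm6356* only the 4-month WT libraries are above 1.39.

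WT replicate 3, whose striatal marker sum was within the *Gde2*KO range, was the highest WT library of 4 months for *Gm2974*, *Gm3373*, *Gm3558*, *Gm3636* and *Gm6356* and lay between the other two for *Gm3194* and *Gm3383*. The part of striatal and hippocampal content in the 4-month values was not tested. Interneuron markers (5 genes) overlapped between the genotypes at 857 to 1137 summed TPM in WT and 1083 to 1790 in *Gde2*KO. Of 10 marker lists, only that of endothelial cells (3 genes, none at 0) did not overlap between the genotypes at 4 months, at 53.7 to 65.5 in WT and 75.8 to 83.1 in *Gde2*KO, and its part in the result was not tested. At 19 months hippocampal markers (11.04 to 13.1 in WT and 18.5 to 25.9 in *Gde2*KO) and astrocyte markers (4 genes, 281 to 300.6 and 300.97 to 331) did not overlap, and their part was not tested either. In bulk tissue, fewer cells of a type and less RNA per cell cannot be told apart.

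Across all genes, limma was run on log2 of the normalized count plus 0.5. A gene counted as called when its adjusted p (Benjamini-Hochberg) was below 0.1 and its log2 change exceeded 0.721 in either direction. At 4 months 0.126% of the 19035 genes tested were called (24 genes), and 6 of the 7 members were among them. This count follows from how the members were chosen, and *Gm6356* reached the filter value in WT libraries only. *Gm2974* was not called in this fit, but was in some alternatives, such as that without WT replicate 3. The count of members called was 3 without WT replicate 1 or without WT replicate 2, and 2 without *Gde2*KO replicate 1 or without *Gde2*KO replicate 3. With a WT library left out, *Gm6356* did not pass the filter, so that 6 members were tested there. The log2 differences of the 6 higher genes ran from 1.40 for *Gm2974* to 3.87 for *Gm3636*, where the median of all genes tested was 0.11. With each library rescaled to the same total the median of all genes moved to -0.02, and the direction of each of the 7 genes stayed as it was.

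At 19 months, in libraries that the choice of genes did not use, 0 of the 6 members tested were called, where 0.0969% of the 18583 genes tested were called (18 genes). None of the 6 reached an unadjusted p under 0.05 in this limma fit. In 2 alternative limma fits 1 member did, with all 12 libraries in 4 groups and without the intensity trend. *Gm6356* did not pass the filter, with 0 in all libraries. *Gm3636* had 134, 89.2 and 82.4 normalized counts in WT libraries A, B and C and 47.4, 74.7 and 96.2 in *Gde2*KO libraries A, B and C. Its groups overlapped, and the log2 difference was -0.51 (standard error 0.31, 95% interval -1.22 to 0.21, limma adjusted p = 0.734).

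*Gm3194* had 41.3, 42.7 and 32.6 normalized counts in WT and 29.5, 32.1 and 33.0 in *Gde2*KO at 19 months, a log2 difference of -0.29 (95% interval -0.98 to 0.40, limma adjusted p = 0.793). *Gm3383* had 41.3, 45.1 and 37.8 in WT and 29.5, 32.1 and 34.1 in *Gde2*KO. Its WT libraries all lay above its *Gde2*KO libraries, the reverse of 4 months, and the log2 difference of -0.37 (standard error 0.29, 95% interval -1.03 to 0.29, limma adjusted p = 0.754) did not pass the test. Such separation was found in 14.2% of the genes tested at 19 months and in 1 of the 6 members. In TPM the groups of *Gm3383* overlapped, at 1.91 to 2.54 in WT and 1.02 to 1.98 in *Gde2*KO. For *Gm3194* and *Gm3383* alike, WT library A held 8.86 estimated reads and *Gde2*KO library A 3.56. As 1 read equals 8.29 normalized counts in *Gde2*KO library A, the separation of *Gm3383* rests on few reads.

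*Gm3558* had 7.67, 34.0 and 49.1 normalized counts in WT and 64.2, 30.8 and 37.8 in *Gde2*KO at 19 months, a log2 difference of 0.82 (95% interval -0.68 to 2.33, limma adjusted p = 0.756). Its lowest and its highest value came from the 2 shallow libraries, with 1.65 and 7.74 estimated reads, and without them the difference was -0.26 (limma adjusted p = 0.898). *Gm2974* had 13.3, 10.6 and 13.5 in WT and 19.6, 7.82 and 16.2 in *Gde2*KO, a log2 difference of 0.13 (95% interval -1.15 to 1.40, limma adjusted p = 0.962), and -0.081 without the shallow libraries. For both genes the sign of the 19-month difference depends on libraries with few reads.

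*Gm3373* was low and uneven at 19 months. It had 2.74, 10.5 and 13.8 normalized counts in WT and 0, 0 and 11.9 in *Gde2*KO, and 3 of the 6 libraries were under 3 estimated reads. Its zeros came from the shallowest library of that age, *Gde2*KO library A, and from the deepest, *Gde2*KO library B, while the other 3 deep libraries held 12.5 to 19.1 reads. The log2 difference of -2.46 had a 95% interval from -6.02 to 1.11 (limma adjusted p = 0.734).

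**Figure D3:**
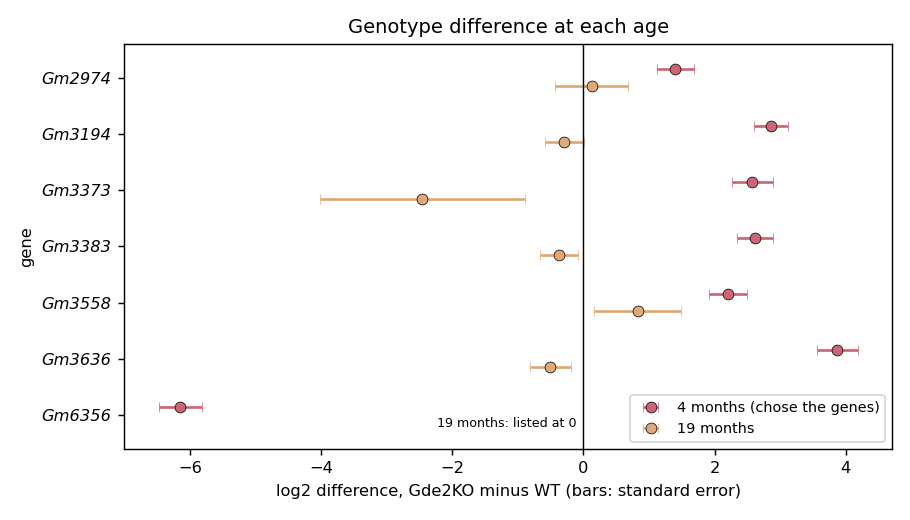
Log2 difference of *Gde2*KO minus WT (horizontal axis, limma on log2 of the normalized count plus 0.5) for each gene at 4 and at 19 months, with bars for the standard error; *Gm6356* has no value at 19 months. The 4-month values, which chose the genes, run from -6.14 to 3.87, and the 19-month values from -2.46 to 0.82.

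The total over the 7 genes was 325, 304 and 385 normalized counts in WT replicates 1, 2 and 3 and 1257, 814 and 1484 in *Gde2*KO replicates 1, 2 and 3 of 4 months. The means of 338 ± 41.8 and 1185 ± 341 (SD, n = 3) differ by a factor of 3.50. Without *Gm6356*, which made up a large part of the WT total, the 6 other genes summed to 206 ± 28.7 in WT and 1184 ± 341 in *Gde2*KO, a factor of 5.76. At 19 months the total was 240, 232 and 229 in WT and 190, 177 and 229 in *Gde2*KO, with means of 234 ± 5.81 and 199 ± 26.9. The highest *Gde2*KO and the lowest WT library were within 1 normalized count of each other. As a sum, both 19-month groups were therefore close to the 4-month WT level of the 6 other genes. Single genes moved both ways. In WT, *Gm3636* had a mean of 10.9 at 4 months and 102 at 19 months, and *Gm3373* 40.6 and 9.02. The 4-month *Gde2*KO libraries stood apart from the other 9 in the sum.

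**Figure D4:**
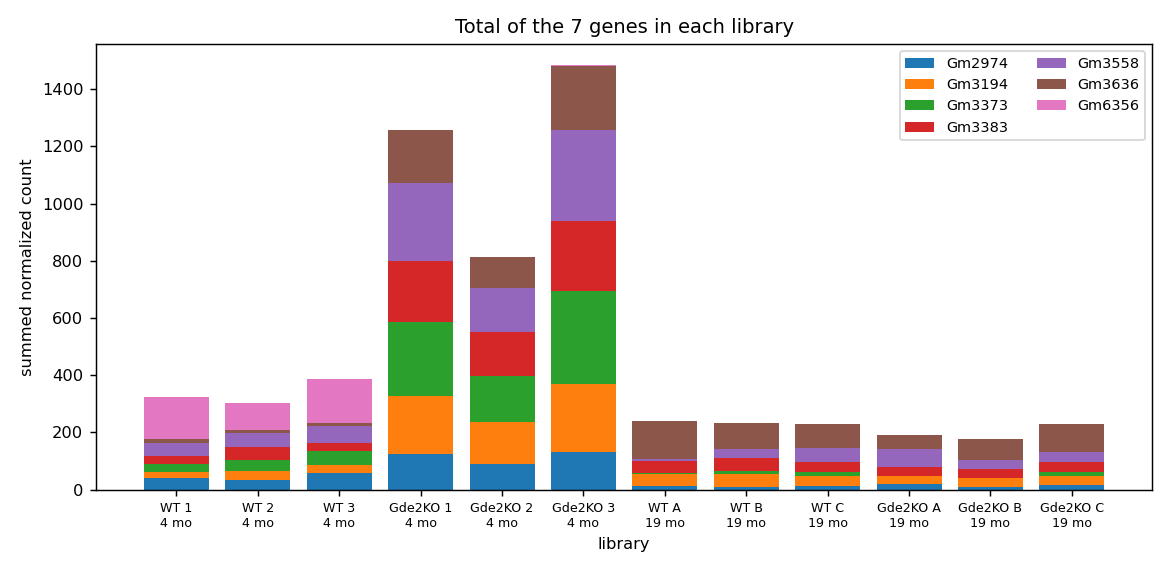
Summed normalized count of the 7 genes (vertical axis, from 0) in each of the 12 libraries (horizontal axis), with the part of each gene in a color of its own. The *Gde2*KO libraries of 4 months reach 814 to 1484, the other 9 libraries 177 to 385, and the part of *Gm6356* is visible only in the WT libraries of 4 months.

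Gene length is taken into account in TPM, on which levels can be compared between genes. In 4-month WT cortices *Gm6356* was the highest of the 7 at 4.66 ± 1.10 TPM, *Gm3383* the next at 2.43 ± 1.01, and *Gm3636* the lowest at 0.386 ± 0.029 (SD, n = 3). Ranges of neighbours in this order overlapped except at the lower end, between *Gm2974* (1.33 ± 0.38) and *Gm3636*. In 4-month *Gde2*KO cortices *Gm2974* was the highest at 12.1 ± 2.36 TPM and *Gm6356* the lowest at 0.0458 ± 0.0031, and only the step down to *Gm6356* was larger than the ranges. At 19 months *Gm3636* was the highest in both genotypes, with 3.88 ± 0.93 TPM in WT and 3.65 ± 1.20 in *Gde2*KO, and its range did not overlap that of *Gm3383*, the next. *Gm3636* thus moved from the last place among the 4-month WT libraries to the first at 19 months, in comparisons where age and batch cannot be told apart.

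Single transcripts accounted for part of these patterns. *Gm2974* has a transcript of 1990 bases (ENSMUST00000164512.7) and a shorter one of 447 bases (ENSMUST00000180184.1). The shorter transcript had 48.4, 29.8 and 43.4 normalized counts in the *Gde2*KO libraries of 4 months and 0 in each of the other 9 libraries. It made up 81.9% ± 2.06 (SD, n = 3) of the gene's TPM in those 3 libraries, so that the ratio of *Gde2*KO to WT at 4 months was 9.11 in TPM and 2.63 in normalized counts. Of its words, 4.56% occur in no other gene, and 88.7% occur in *Gm3500*, a further copy. The longer transcript was also higher in *Gde2*KO at 4 months, at 74.8, 58.4 and 89.6 normalized counts against 39.6, 33.6 and 57.7 in WT.

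The shared long transcript of *Gm3194* and *Gm3383* (1813 bases) had 16.3, 14.7 and 13.2 normalized counts in WT and 184, 128 and 207 in *Gde2*KO at 4 months. Its share of *Gm3194* TPM was 32.8% ± 16.3 in WT and 70.5% ± 3.59 in *Gde2*KO at 4 months, and 52.6% ± 7.75 and 59.5% ± 35.7 at 19 months (SD, n = 3). The other shared transcript (780 bases) had 5.06 to 16.1 in WT and 19.98 to 29.6 in *Gde2*KO at 4 months, a smaller difference. The transcript of *Gm3383* alone (748 bases, ENSMUST00000096171.11) had 1.63 to 12.5 in WT and 5.65 to 8.54 in *Gde2*KO, and its groups overlapped.

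*Gm3373* was carried mainly by a transcript of 1955 bases that has no word of its own and shares 98.4% of its words with *Gm3500*. Its share of the gene's TPM was 80.9% ± 5.26 in WT and 60.4% ± 7.52 in *Gde2*KO at 4 months. The shorter transcript of *Gm3373* (516 bases), which holds the only words found in no other gene, had 1.17, 1.88 and 1.26 normalized counts in WT and 21.0, 20.3 and 24.2 in *Gde2*KO. For *Gm3636*, the shorter transcript (ENSMUST00000100904.4) was above 0 only in WT library B (5.43) and *Gde2*KO library A (19.9) of 19 months, where in the second it made up 80.0% of the gene's TPM. *Gm3558* and *Gm6356* are listed with 1 transcript each.

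Transcript usage at 19 months was tested with limma's diffSplice. Of 12253 genes tested, 0.171% were called (21 genes), at an adjusted p under 0.1 and a change of more than 10 percentage points in a transcript's share. Only *Gm3194* and *Gm3383* of the 7 had enough expressed transcripts to be tested, and 0 of these 2 were called or had an unadjusted p under 0.05. Both rest on the same pair of shared transcripts and had the same diffSplice adjusted p of 0.994.

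The other genes of the family had a mixed pattern at 4 months. Of the 138 family genes, 22 were at 0 in every library. Among all genes tested at 4 months, 15.4% had no overlap between the genotypes. Of the 30 family genes outside the 7 that passed the filter at that age, 13 had none. *Gde2*KO was above in 8 of these and WT in 5. These genes share words with the 7 and are not independent of their choice. limma called 2 of the 30, *Gm10406* and *Gm3488*, beside 0.126% of all genes tested. Both are named, like the other family genes here, after their values were seen. *Gm10406* had 8.45, 12.2 and 2.29 normalized counts in WT and 122, 72.6 and 120 in *Gde2*KO. *Gm3488* had 0.395, 0 and 1.06 in WT and 17.8, 12.1 and 29.0 in *Gde2*KO, but 20.4, 21.8 and 26.5 in the WT libraries of 19 months. *Gm3488* and *Gm2956* were the 2 of the 30 that reached the filter value in *Gde2*KO libraries only, so that both had to differ.

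*Gm3591*, which holds 78.0% of the words of the longer *Gm3636* transcript, had 0, 11.02 and 9.35 normalized counts in WT and 352, 180 and 448 in *Gde2*KO at 4 months, and at most 9.69 in any library of 19 months. limma did not call it at 4 months (adjusted p = 0.239). *D830030K20Rik*, the family gene of highest mean, differed little, at 205 to 213 in WT and 187 to 241 in *Gde2*KO. *Gm3411*, the next, had 203 to 300 in WT and 163 to 450 in *Gde2*KO at 4 months and 0 to 27.3 in the libraries of 19 months. The family as a whole summed to 1586 ± 85.8 normalized counts in WT and 3220 ± 972 in *Gde2*KO at 4 months, a ratio of 2.03, and to 1257 ± 36.2 and 1065 ± 159 at 19 months. The 7 genes made up 21.3% ± 1.74 of the family total in 4-month WT and 36.9% ± 0.89 in 4-month *Gde2*KO, and 18.6% ± 0.13 and 18.8% ± 2.48 in WT and *Gde2*KO of 19 months (SD, n = 3).

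**Figure D5:**
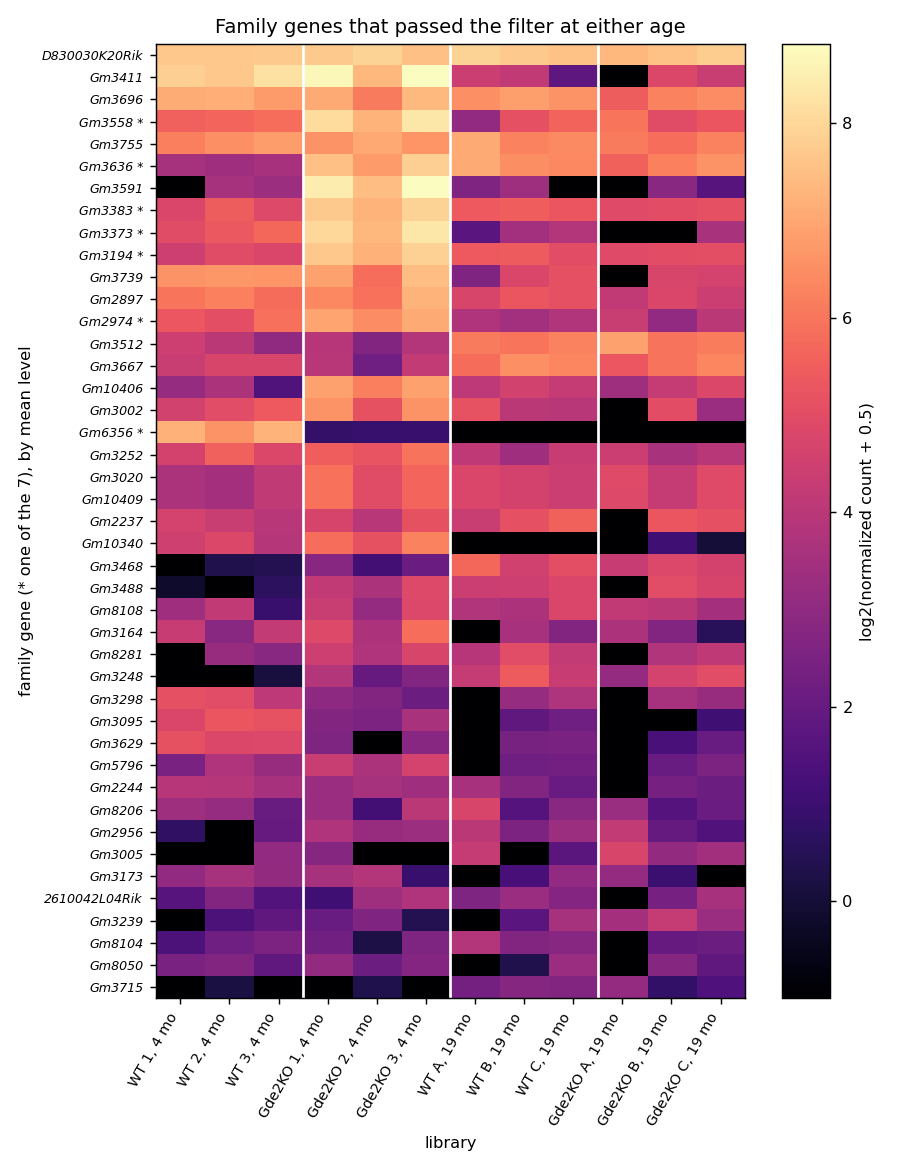
Log2 of the normalized count plus 0.5 (color) for the 43 family genes that passed the filter at either age (rows, by mean level, the 7 genes marked with a star) in the 12 libraries (columns, with white lines between groups). *Gm6356* is bright only in WT of 4 months, *Gm3591* and the 6 other starred genes are brightest in *Gde2*KO of 4 months (except that *Gm3636* in the 19-month WT library A exceeds *Gde2*KO replicate 2), and *D830030K20Rik* is even across the libraries.

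At 19 months, 29 family genes outside the 7 were tested and 0 were called by limma, with 0 at an unadjusted p under 0.05. Of all genes tested, 0.0969% were called and 6.91% had an unadjusted p under 0.05 in limma. WT was above *Gde2*KO without overlap in 3 of them, and the reverse occurred in 0, where 14.2% of all genes tested had no overlap. The median log2 difference of the 33 tested family genes in the 2 to 9 Mb cluster was -0.38, beside -0.02 over all genes tested. Over the 35 tested family genes in all, the median was -0.51, and -0.07 without both shallow libraries, so its size rests on those libraries.

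Genes of the same region that do not belong to the family were not called by limma. Of the 83 cluster genes outside the family, 15 were tested at 4 months and 13 at 19 months. At either age 0 were called, and 1 at each age had an unadjusted p under 0.05 in limma. Their median log2 differences were -0.34 and 0.00, beside 0.11 and -0.02 over all genes tested. As only 0.126% and 0.0969% of all genes tested were called, 0 calls among so few genes tell little about the region. The cluster genes of highest mean level were outside the family. *Fam107a* had 5703 ± 592 normalized counts in WT and 4898 ± 499 in *Gde2*KO at 4 months, and 12134 ± 1435 and 9956 ± 990 at 19 months (SD, n = 3). *Pdhb*, a subunit of pyruvate dehydrogenase, *Abhd6*, a lipase of the endocannabinoid 2-AG, and *Pxk* differed by -0.06, 0.19 and 0.07 at 4 months. The total over all 186 cluster genes, in which these genes dominate, was 19301 ± 1007 in WT and 19106 ± 3011 in *Gde2*KO at 4 months.

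The genes most like the total of the 7 over the 12 libraries, among 16114 genes with a mean of 20 or more, were *Dnajb4* (Pearson r = 0.969), *Gnb2* (0.965), *Rbm34* (0.962), *Klf16* (0.962) and *Hccs* (0.961). These coefficients describe 12 libraries in which the 3 *Gde2*KO libraries of 4 months are high, and they also follow whatever else sets these libraries apart. The genes most like *Gm6356*, which was high in WT of 4 months, were *Sgcd* (0.921), *Ston2* (0.900), *Robo1* (0.894), *Sash1* (0.893) and *Hist1h1e* (0.893). *Sgcd* had mean values of 95.7 in WT and 55.6 in *Gde2*KO at 4 months and 41.4 and 43.2 at 19 months, a far smaller contrast than that of *Gm6356*.

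*Dlg5*, from part of which the family is thought to derive, and 21 further genes of the postsynaptic scaffold and its glutamate receptors were read as a list. *Dlg5* is not among the 138 genes defined here as the family by shared 31-base words. All 22 were tested, and 0 were called by limma at either age, with 6 at an unadjusted p under 0.05 at 4 months (27.3% of the list, beside 10.6% of all genes tested) and 1 at 19 months (4.55%, beside 6.91%). The median log2 difference of the list was -0.06 at 4 months and 0.04 at 19 months, beside 0.11 and -0.02 over all genes tested. *Dlg5* itself differed by -0.53 at 4 months (standard error 0.18, limma adjusted p = 0.463) and by 0.10 at 19 months (standard error 0.07, limma adjusted p = 0.743).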

How the data were processed

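Libraries were grouped by the genotype and age in the labels, 3 per group, and the 19-month columns, which carry no replicate number, are called A, B and C in column order. From kallisto pseudoalignments to transcripts of GRCm38, normalized in sleuth, the authors deposited 2 tables of signal values for 118489 transcripts, estimated counts and TPM, each divided by a size factor. Neither table holds whole reads, so count models were not used. Whether strand was used is not given in the sources used here.

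Gene sums were tested with limma 3.58.1 in R 4.3.3 (intensity trend, log2 with a pseudocount of 0.5, each age alone) for genes that reached 5 normalized counts in 47% of the libraries. Calls needed an adjusted p below 0.1 and a natural-log change above 0.5. diffSplice used transcripts with a mean of 5 or more. The value of 1 read is the commonest low value of a library. Sequence words of 31 bases came from GENCODE vM21, which holds 116728 of the transcripts. Promoters came from RefSeq (GRCm38.p6). No protein sequences were used here. Tables were made with python, pandas and numpy.

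The members, lists, tests and named genes were chosen with earlier results of these data known. Besides the 7 genes and *Gdpd5*, the rule named the 5 cluster genes of highest mean and the 5 genes of highest r to the total of the 7 and to *Gm6356*. The values of 1 cluster gene are not reported here. On simulated data 200 of 200 changed genes were called at the gene level of 19 months (18697 genes). For transcript usage it was 111 of 200 (12249 genes), with 0 false calls in both. At the gene level the changed genes were drawn from those with a 19-month mean above that of each of the 7 genes. The changed transcripts were at higher levels than those of *Gm3194* and *Gm3383*. These counts therefore do not tell how often a change in the 7 genes would be called. Alternatives were other pseudocounts, filters, scalings and variance models, TPM, a replicate block, and each library left out.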

Additional observations from a re-analysis of the deposited data

Results flagged for a closer look

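*Gm3383* had all *Gde2*KO libraries above all WT libraries at 4 months, with a log2 difference of 2.61, and all WT libraries above all *Gde2*KO libraries at 19 months, with a log2 difference of -0.37. It is listed because its libraries separated in opposite directions at the 2 ages. At 19 months 14.2% of all genes tested separated, the limma adjusted p of *Gm3383* was 0.754, and its groups overlapped in TPM. Its value in *Gde2*KO library A of that age rested on 3.56 estimated reads. The groups of *Gm3194*, which shares transcripts with *Gm3383*, overlapped at 19 months. The difference between the ages was not tested, because the gene was chosen on its 4-month values.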

How the results depend on the processing

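At 19 months 0 of the members were called under each of the 16 alternatives, and for transcript usage under each of the 9. The log2 differences of *Gm3194*, *Gm3373*, *Gm3383* and *Gm3636* kept their sign at 19 months, and those of the 7 genes at 4 months. *Gm2974* at 19 months went from 0.13 to -0.081 without both shallow libraries and to -0.13 without *Gde2*KO library A, in a range of -0.13 to 0.51 over libraries left out, and *Gm3558* from 0.82 to -0.26 without both shallow libraries; the alternatives hold fewer libraries. Counts of genes called varied more. At 4 months the 24 became 12 with no filter, 12 without the trend and 5 to 1510 with a library left out, the 1510 without WT replicate 3, and members called 2 to 6. At 19 months the 18 became 7 without the trend, 34 without both shallow libraries and 9 (without WT library A) to 45 (without *Gde2*KO library B). For transcript usage the 21 became 47 by Simes, 122 without both shallow libraries and 22 to 59 with a library left out. The cause of these changes was not tested. The total of all cluster genes changed sign at 4 months, from -0.015 to 0.055 with TPM and over -0.14 to 0.081 with a library left out. With each library rescaled to the same total it was -0.159 at 4 months. At 19 months it moved from -0.16 to -0.059 without both shallow libraries, an alternative chosen after seeing the data, as was the total of the family. Replicate numbers at 4 months did not pair the libraries (correlations of 0.060, 0.007 and -0.048), and the replicate block gave 21 genes called and 6 members. Depth limits *Gm2974*, *Gm3194*, *Gm3373*, *Gm3383* and *Gm3558* in the shallow libraries of 19 months. It also limits *Gm3636* in *Gde2*KO library A, at 5.72 estimated reads.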
